A study of Homo sapiens with 3 samples.

Results

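The genes described here are 55 human genes of mitosis and cytokinesis, chosen by name for the proteins they encode and sorted into 6 roles: entry into mitosis, the spindle checkpoint and anaphase, the kinetochore, spindle motors and other microtubule-binding proteins, the chromosomal passenger complex and cytokinesis, and chromosome structure. Their probes were those whose RefSeq accession belongs to a gene of the list, which gave 70 probes for 54 of the 55 genes, among 22430 genes named on the array. No probe was matched to PLK1, which is not analysed here. The list was made with earlier results of these data known, so it is not independent of the arrays. Expression was measured in TK-10 cells, an established line of human renal carcinoma, on 3 single-colour Agilent arrays with 1 array per condition. The control cells received 0.1% DMSO, another culture received cordyceps at 750 μg/mL, and the other received sunitinib, an inhibitor of receptor tyrosine kinases, at 10 μM, each for 48 h. The labels do not state whether the treated cultures also received DMSO. All cultures were kept at 37 °C and 5% CO2 in DMEM with 10% fetal bovine serum and 1% penicillin-streptomycin, and the labels list 3 additions for every culture: zinc sulfate (16.7 μM), troglitazone (10 μM) and nicotinamide (10 mM). The study's methods describe cordycepin, a nucleoside of Cordyceps fungi, at another dose, so the files do not settle the agent or the dose, and the array is called the cordyceps array after its label. The methods do not describe the sunitinib culture.

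Mitosis begins when cyclin-dependent kinase 1, bound to cyclin B, is switched on by CDC25 phosphatases. Kinetochores built on each centromere then catch spindle microtubules, and the spindle checkpoint holds back the anaphase-promoting complex until all chromosomes are attached. After that complex has marked securin and cyclin B for destruction, separase opens the cohesin rings, the chromatids part, and the chromosomal passenger complex and the central spindle direct the cleavage of the cell. In dividing cells most of these genes are transcribed late in the cell cycle, in G2 phase and mitosis, and are kept low in cells that have left the cycle. For this reason their messenger RNAs are widely read as a proliferation signature in tumours. In a culture of mixed cells, fewer cells in mitosis and less of each RNA per cell cannot be told apart.

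Values are Agilent's processed signals, which are fluorescence intensities after background subtraction, each with the error that the scanner software estimated for the spot. For comparison between arrays, a signal was divided by the 75th percentile of all probes on its array, which was 165 on the control array, 138 on the cordyceps array and 78.3 on the sunitinib array. A raw signal is therefore lower on the sunitinib array than the fold change tells. Probes called well above background by the software made up 45.5%, 37.8% and 38.3% of all probes on these arrays, no spot was saturated, and all 3 arrays lay on 1 slide read in 1 scan. A gene not well above background on the dimmer array was given the lowest signal among probes well above background there, and the ratio is a bound, written "at least". Where its own signal was higher than that, it was kept, and the ratio is an estimate and not a bound. With 1 array per condition there is no spread between cultures, so the conditions were described and not tested. A difference was counted when it exceeded 2-fold, and its error is the combined error of the 2 signals, which covers the measurement of the spot but not the variation between cultures. Of 10 renal epithelial markers, 9 were well above background on every array, and CDH1 on none. Of 9 markers of leukocytes, endothelium and fibroblasts, 6, 5 and 5 were well above background on the control, cordyceps and sunitinib arrays, with summed signals of 6956, 1820 and 683, and CD3E, PECAM1 and COL3A1 were not well above background on any. The part of such cells or transcripts in the values below was not tested.

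The mitotic genes were expressed on the control and cordyceps arrays and were low on the sunitinib array. On the control array 51 of the 54 genes were well above background, on the cordyceps array likewise 51, and on the sunitinib array 27. The 24 genes that dropped below the criterion under sunitinib made up 47.1% of the 51, whereas 1673 of the 14656 genes of all kinds that were well above background on the control array (11.4%) did so. The kinetochore genes CENPI and SPC24 and the condensin gene NCAPH were not well above background on any array, and no ratio is given for them. Their processed signals on the control, cordyceps and sunitinib arrays were 12.5, 8.51 and 4.10 for CENPI. For SPC24 they were 14.4, 32.7 and 4.06, and for NCAPH 14.9, 12.7 and 6.78.

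Between the sunitinib and control arrays, 43 of the 51 genes were lower by more than 2-fold and none was higher by that amount. Over all 14894 genes compared, 6.52% were lower by more than 2-fold and 6.43% higher. For 24 of the 51 genes the sunitinib signal was not well above background. Their ratios are bounds, and the fall may be larger than stated, except for CDK1, BUB1 and ESPL1. Those genes kept their own signal, and their ratios are estimates. Counting any amount, 50 of the 51 were lower, against 48.8% of all genes, of which 45.1% were higher and the rest at 0. The median log2 ratio of the mitotic genes was −2.33, with quartiles of −2.90 and −1.47, against 0.00 for all genes. When the processed signal was replaced by a normexp background correction, which raises low intensities, the median was −1.33 and 32 of the 51 genes were lower by more than 2-fold. The 8 genes that did not pass the limit were CDC25B, BUB3, CENPN, CENPK, CKAP2, AURKB, INCENP and NCAPG, of which CENPK, AURKB and NCAPG were bounded at 1.85-fold, 1.98-fold and 1.71-fold lower. Among the 12983 genes measured on both arrays, of which 27 were mitotic, the 25 lowest included 7 mitotic genes and the 100 lowest included 15. The 5177 other genes with a control level between the quartiles of the mitotic genes had a median log2 ratio of −0.07, and 8.07% of them were lower by more than 2-fold.

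Between the cordyceps and control arrays the same genes lay slightly above the control. Each of the 51 passed the background criterion on the 2 arrays, and 50 had a ratio above 1. Of the 14775 genes compared in all, 46.2% had a ratio above 1 and 47.9% below. More than 2-fold higher were 9 genes (3.01% of all genes), namely CDK1, CDC25B, BUB1, BUB1B, MAD2L1, UBE2C, PTTG1, NUF2 and HMMR, and none was more than 2-fold lower (2.75% of all genes). At a limit of 1.5-fold, 34 were higher (8.79% of all genes). Among the 13026 genes measured on both arrays, no mitotic gene was in the 100 highest. The difference exceeded the 95% limit of the combined error for 42 genes, all of them higher, where 15.0% of the genes measured on both arrays were higher by this criterion. The median log2 ratio was 0.74 with quartiles of 0.49 and 0.91, against 0.00 for all genes. It was 0.52 after the normexp correction, under which 5 genes passed the 2-fold limit, and 0.96 when arrays were scaled to their medians, under which 21 did. For the 5177 other genes of like control level the median was −0.03, and 7.36% were more than 1.5-fold higher. The control array is shared by both comparisons, so the 2 sets of ratios are not independent.

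**Figure D1:**
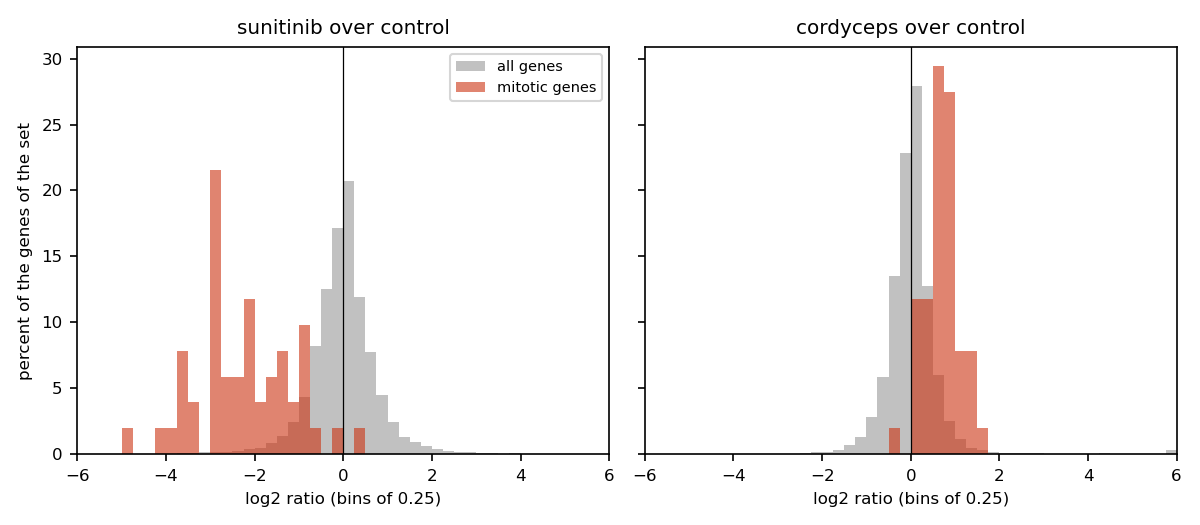
Distribution of log2 ratios in bins of 0.25 for all genes compared (grey) and for the 51 mitotic genes (red), as a percent of each set, sunitinib over control at left and cordyceps over control at right. The mitotic genes centre on −2.33 at left and on 0.74 at right, while all genes centre on 0.00, and ratios beyond the axis are placed in the last bin.

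Many genes of this kind carry short promoter elements that regulate their timing in the cycle. The CCAAT box is bound by the factor NF-Y, and the cell cycle genes homology region, or CHR, is bound by the MuvB core complex within DREAM, which represses these genes in resting cells, and within complexes with MYBL2 and FOXM1, which activate them in G2 phase. RefSeq promoter windows of build GRCh38.p14, from 250 bases before to 50 bases after the annotated start, were found for 48 of the 55 genes, and were searched on both strands for CCAAT, for the CHR letters TTTGAA or TTCGAA, and for the E2F letters TTTCGCGC or TTTGGCGC. A CCAAT was present in 36 of the 48 windows (75%) and in 35.7% of all 27305 windows. A CHR was present in 33 (68.8%) and in 16.6% of all windows, and both together in 27 (56.2%) and in 6.58% of all windows. At least 2 CCAAT with a CHR were found in 31.2% of the mitotic windows and 1.98% of all windows. The E2F letters were found in only 2 of the 48 (4.17%, against 1.18% of all windows). The matches also had a position in common, a feature that was examined after the first counts had been seen. Of the mitotic windows, 26 (54.2%) held a CHR within 40 bases of the start, against 4.35% of all windows, and the 75 CCAAT matches had a median position of −71 relative to it. A match of letters is a description of the window and not evidence that a factor binds there. A window without a match does not show that the gene lacks the element, since only these letters near the annotated start were searched.

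The 130 bases before the start are printed for 7 genes, with every CCAAT (or its complement ATTGG) and every CHR (or its complement) in capitals. HMMR, CCNB2 and CDCA8 have several boxes upstream of a CHR. PRC1 and ESPL1 show the simplest arrangement, a CCAAT followed by a CHR. KIF2C and CDC25B have none of these letters. KIF2C is shown for the next largest measured fall after NDC80, and CDC25B as the only gene above the control under sunitinib. With normexp UBE2C fell further than KIF2C (log2 −3.31 against −2.95). In HMMR a forward and a reversed box overlap and 2 CHR are joined end to end, and in CDCA8 the CHR shares its last letter with a reversed box.
HMMR, chr5:163460502-163460631, plus strand: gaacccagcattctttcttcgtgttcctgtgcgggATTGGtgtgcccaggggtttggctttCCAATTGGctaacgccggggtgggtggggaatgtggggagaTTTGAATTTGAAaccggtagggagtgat
CCNB2, chr15:59105016-59105145, plus strand: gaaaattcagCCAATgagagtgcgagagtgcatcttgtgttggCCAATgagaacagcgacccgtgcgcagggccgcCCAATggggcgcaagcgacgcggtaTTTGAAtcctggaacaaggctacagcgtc
CDCA8, chr1:37692386-37692515, plus strand: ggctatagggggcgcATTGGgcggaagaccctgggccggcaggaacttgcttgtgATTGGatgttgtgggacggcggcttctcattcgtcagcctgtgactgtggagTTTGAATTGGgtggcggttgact
PRC1, chr15:90994536-90994665, minus strand: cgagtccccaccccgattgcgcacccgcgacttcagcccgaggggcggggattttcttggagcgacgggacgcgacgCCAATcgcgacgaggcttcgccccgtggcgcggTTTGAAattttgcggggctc
ESPL1, chr12:53268169-53268298, plus strand: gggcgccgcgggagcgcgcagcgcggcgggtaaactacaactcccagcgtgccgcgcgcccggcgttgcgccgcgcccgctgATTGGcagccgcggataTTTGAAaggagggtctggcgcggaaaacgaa
KIF2C, chr1:44739707-44739836, plus strand: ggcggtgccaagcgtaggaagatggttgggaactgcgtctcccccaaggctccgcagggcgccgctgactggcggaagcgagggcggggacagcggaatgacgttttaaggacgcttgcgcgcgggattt
CDC25B, chr20:3786821-3786950, plus strand: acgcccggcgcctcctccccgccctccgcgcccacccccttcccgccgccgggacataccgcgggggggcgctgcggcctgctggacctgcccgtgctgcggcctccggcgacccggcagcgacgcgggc

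Grouped by these letters, the genes had a median log2 ratio below 0 under sunitinib in every class. Of the 26 genes compared that had both a CCAAT and a CHR, 24 were more than 2-fold lower, with a median log2 ratio of −2.75. With a CCAAT alone 5 of 7 were lower by that limit, and with a CHR alone 5 of 6. Of the 5 genes with neither in the window searched, CDC25C, CENPE and KIF2C were lower by more than 2-fold, whereas CKAP2 and CDC25B were not. Between the cordyceps and control arrays, 19 of the 26 genes with both elements were more than 1.5-fold higher, as were 4 of the 5 with neither. Classes of this size differ by few genes, and no difference between them was tested.

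**Figure D2:**
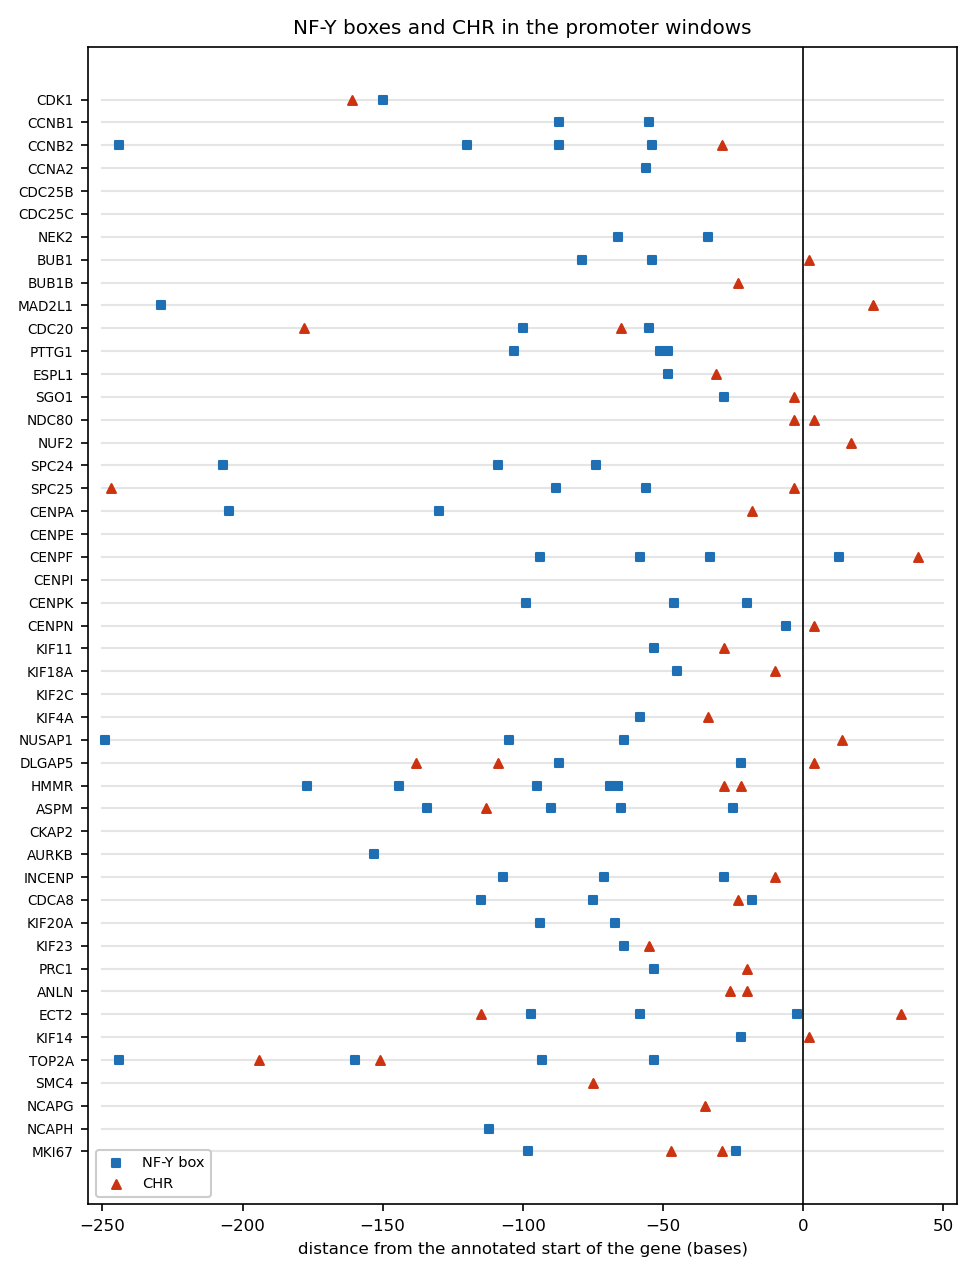
Position of CCAAT letters (blue squares, labelled NF-Y box) and CHR letters (red triangles) in the promoter windows of the mitotic genes with a window and a probe, in bases from the annotated start (0). Most CHR matches lie near the start and most CCAAT matches upstream of them, with median positions of −26 and −71, and the windows of CDC25B, CDC25C, CENPE, CENPI, CKAP2 and KIF2C hold neither.

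Of the 9 genes for entry into mitosis, 8 were more than 2-fold lower on the sunitinib array. CDK1, the kinase that drives cells into mitosis, gave processed signals of 572 ± 57.3 on the control array, 1051 ± 105 on the cordyceps array and 18.7 ± 4.74 on the sunitinib array. The last value was not well above background but was kept, so the ratio of 14.5-fold lower under sunitinib is an estimate (log2 −3.86, error 0.39). With normexp it was −2.24. CDK1 was 2.2-fold higher under cordyceps. AURKA, the kinase that matures centrosomes, gave signals of 319 ± 32.1, 400 ± 40.6 and 22.4 ± 4.75, in the same order of arrays. This was 6.77-fold lower under sunitinib (log2 −2.76, error 0.34) and 1.5-fold higher under cordyceps (log2 0.58, error 0.21). CCNB2, a B-type cyclin, had signals of 1480 ± 148, 1830 ± 183 and 132 ± 13.6, or 5.35-fold lower and 1.48-fold higher. CCNB1, the main mitotic cyclin, was 4.42-fold lower and 1.63-fold higher. CCNA2, CDC25C and NEK2, which encode cyclin A2, a CDK1-activating phosphatase and a centrosomal kinase, fell under the background criterion with sunitinib and were at least 2.94-fold, 2.38-fold and 2.97-fold lower. FOXM1, a transcription factor that activates G2 and mitotic genes, was 2.90-fold lower under sunitinib and 1.88-fold higher under cordyceps.

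CDC25B, the phosphatase that starts CDK1 activation at centrosomes, went against its group. Its signals were 273 ± 27.7 on the control, 473 ± 48.0 on the cordyceps and 172 ± 17.8 on the sunitinib array. After scaling it was 1.32-fold higher under sunitinib (log2 0.41, error 0.21), within the 95% limit of the error, and 2.07-fold higher under cordyceps. Both treated arrays thus lay above the control for this gene, but for sunitinib only after scaling, since the raw signal was lower.

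**Figure D3:**
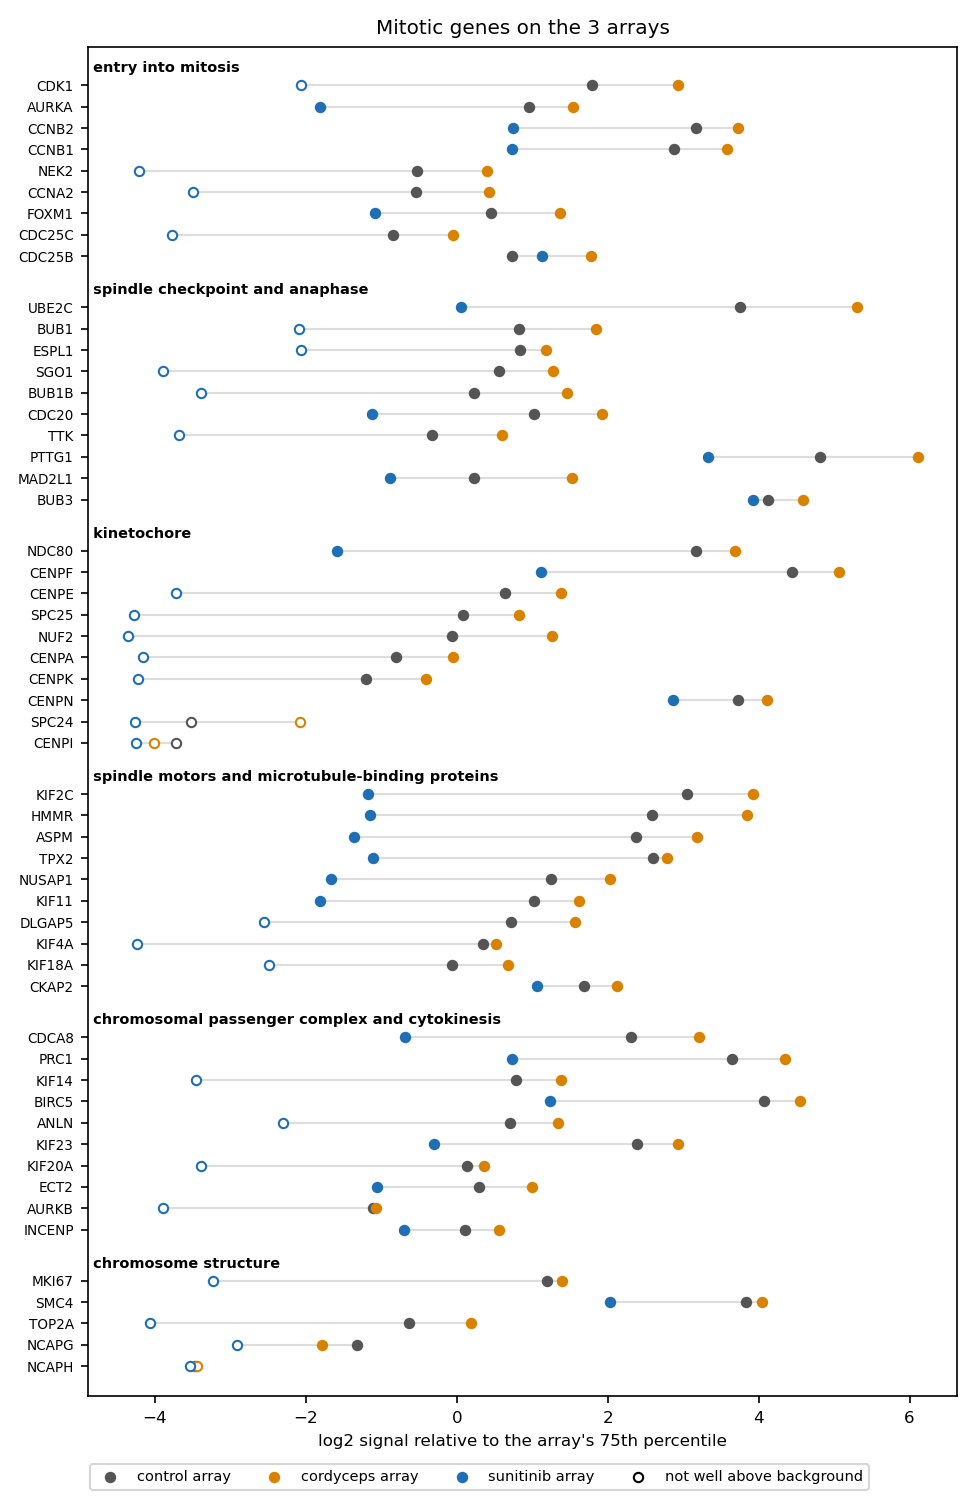
Level of each mitotic gene with a probe on the 3 arrays, as log2 of the processed signal relative to the 75th percentile of the array, grouped by role. Filled circles are well above background and open circles are not, and the sunitinib circle lies left of the control circle in every gene compared except CDC25B.

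Genes of the spindle checkpoint and anaphase differed most between the cordyceps and control arrays, with 5 of 10 more than 2-fold higher and a median log2 ratio of 0.97. UBE2C, which supplies ubiquitin for targets of the anaphase-promoting complex, gave signals of 2218 ± 222, 5455 ± 546 and 81.2 ± 9.12 on the control, cordyceps and sunitinib arrays. It was the mitotic gene furthest above the control under cordyceps, at 2.94-fold (log2 1.56, error 0.20), and was 13.0-fold lower under sunitinib (log2 −3.70, error 0.22), although its probe may also read pseudogene copies. With normexp the sunitinib log2 ratio of UBE2C was −3.31. BUB1, a checkpoint kinase, had signals of 292 ± 29.5, 493 ± 49.8 and 18.5 ± 4.61. It was 2.02-fold higher under cordyceps and an estimated 7.51-fold lower under sunitinib, where its signal was not well above background. BUB1B, which encodes the checkpoint protein BubR1, gave 193 ± 19.7, 380 ± 38.6 and 7.46 ± 3.88. It was 2.35-fold higher and at least 5.01-fold lower. MAD2L1 encodes Mad2, which binds and holds CDC20. Its signals of 193 ± 19.7, 398 ± 40.4 and 42.4 ± 5.97 made it 2.47-fold higher under cordyceps but only 2.16-fold lower under sunitinib. PTTG1, securin, gave 4616 ± 462, 9496 ± 950 and 790 ± 79.1, being 2.46-fold higher and 2.78-fold lower, although its probe may also read the near-identical copies PTTG2 and PTTG3P.

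The other genes of this role were also more than 2-fold lower under sunitinib, except BUB3. ESPL1, which encodes separase, gave signals of 294 ± 29.7, 312 ± 32.0 and 18.7 ± 4.50. It was an estimated 7.46-fold lower under sunitinib, where its signal was not well above background. Under cordyceps its ratio of 1.27-fold stayed within the error limit. SGO1, the shugoshin that protects centromeric cohesin, and TTK, the kinase at the head of the checkpoint, were at least 6.29-fold and 3.4-fold lower under sunitinib, and CDC20, the activator of the anaphase-promoting complex, was 4.42-fold lower. BUB3 encodes the partner of BUB1 and BubR1 and also serves outside mitosis. It gave 2881 ± 288, 3304 ± 330 and 1187 ± 119, a ratio of 1.15-fold lower under sunitinib (log2 −0.21, error 0.20) that did not exceed the error limit.

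Of the 8 kinetochore genes compared, 6 were more than 2-fold lower under sunitinib. NDC80 showed the largest measured fall of all mitotic genes. It encodes the subunit whose head grips the microtubule, and its signals were 1486 ± 149 on the control, 1769 ± 177 on the cordyceps and 26.0 ± 4.74 on the sunitinib array. This corresponds to 27.2-fold lower under sunitinib (log2 −4.76, error 0.30) and 1.42-fold higher under cordyceps. With normexp the sunitinib log2 ratio of NDC80 was −3.51. NUF2 encodes the partner of NDC80 in the same complex, and gave 158 ± 16.3, 330 ± 33.6 and 3.82 ± 3.83, hence 2.50-fold higher under cordyceps and at least 4.09-fold lower under sunitinib. SPC25, another subunit of this complex, was at least 4.51-fold lower, and the remaining subunit, SPC24, was too dim to compare. The bound for NUF2 and SPC25 is set by their lower control signal, so their falls cannot be ranked against that of NDC80.

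CENPF, a large protein of the outer kinetochore, gave 3597 ± 360, 4613 ± 461 and 170 ± 17.6, which is 10.1-fold lower under sunitinib and 1.53-fold higher under cordyceps. CENPE, the kinesin that carries chromosomes to the spindle equator, gave 256 ± 26.0, 359 ± 36.6 and 5.95 ± 4.57, at least 6.64-fold lower and 1.67-fold higher. Proteins of the inner kinetochore sit on the centromere through most of the cycle. CENPA, the histone H3 variant that marks the centromere, was at least 2.43-fold lower and CENPK at least 1.85-fold lower. CENPN, which reads the CENPA nucleosome, had signals of 2175 ± 218, 2393 ± 239 and 572 ± 57.4, and was 1.81-fold lower (log2 −0.85, error 0.20), past the error limit but not past 2-fold. A further CENPN probe, also well above background on every array, was 2.93-fold lower (log2 −1.55), so the call for CENPN depends on the probe.

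Of the 10 spindle motors and microtubule-binding proteins, 9 were more than 2-fold lower under sunitinib, with a median log2 ratio of −2.87 that includes 3 bounds. KIF2C, a kinesin that takes microtubules apart at centromeres, gave signals of 1366 ± 137, 2095 ± 210 and 34.5 ± 5.97 on the control, cordyceps and sunitinib arrays. It was 18.8-fold lower under sunitinib (log2 −4.23, error 0.29) and 1.83-fold higher under cordyceps. With normexp the sunitinib log2 ratio of KIF2C was −2.95. HMMR, a hyaluronan receptor that also binds the spindle, gave 992 ± 99.3, 1989 ± 199 and 35.2 ± 6.17, and so was 13.4-fold lower and 2.40-fold higher. ASPM, which holds microtubules at the spindle pole, gave 854 ± 85.5, 1254 ± 126 and 30.3 ± 4.95. It too was 13.4-fold lower, and it was 1.75-fold higher under cordyceps. TPX2, the activator of AURKA on the spindle, was 13.0-fold lower under sunitinib, while its cordyceps ratio of 1.14-fold was within the error limit. With normexp the sunitinib log2 ratios of HMMR and TPX2 were −2.57 and −2.61. KIF11, the kinesin that pushes the poles apart, and NUSAP1 were 7.12-fold and 7.56-fold lower. DLGAP5, KIF18A and KIF4A fell under the background criterion, with bounds of 7.04-fold, 4.08-fold and 5.44-fold, and the KIF4A probe may also read its copy KIF4B. CKAP2 moved least, with signals of 530 ± 53.3, 600 ± 60.5 and 163 ± 17.1, or 1.54-fold lower (log2 −0.63, error 0.21).

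In the chromosomal passenger complex, the subunits did not all move alike. CDCA8, borealin, gave signals of 818 ± 81.9, 1278 ± 128 and 48.6 ± 6.54, and was 8.0-fold lower under sunitinib (log2 −3.00, error 0.24) and 1.87-fold higher under cordyceps. BIRC5, survivin, was 7.16-fold lower and 1.38-fold higher. INCENP, the scaffold that joins the complex to its kinase, gave 177 ± 18.3, 203 ± 21.6 and 48.4 ± 6.62, which is 1.74-fold lower (log2 −0.80, error 0.25). The kinase itself, AURKB, gave only 76.6 ± 9.05 on the control array and was at least 1.98-fold lower under sunitinib, with a cordyceps ratio of 1.02-fold. Thus CDCA8 and BIRC5 passed the 2-fold limit and INCENP did not, whereas for AURKB the signal was too low to tell. Spots around that of AURKB were also brighter on the control array, by a median log2 of 0.48 over the brighter treated array. No other mitotic gene had so high a value, and its part in the AURKB ratios was not tested.

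Among the cytokinesis genes, PRC1, which bundles the microtubules of the central spindle, gave signals of 2064 ± 206, 2821 ± 282 and 130 ± 13.8. It was 7.52-fold lower under sunitinib (log2 −2.91, error 0.21) and 1.63-fold higher under cordyceps. KIF14, a kinesin of the midbody, gave 283 ± 28.6, 359 ± 36.5 and 7.13 ± 4.22, at least 7.33-fold lower and 1.52-fold higher. KIF23, a motor subunit of centralspindlin, was 6.42-fold lower, KIF20A, which moves the passenger complex to the midzone, at least 4.67-fold lower, and the contractile ring protein ANLN at least 6.98-fold lower. ECT2, which activates the GTPase RhoA at the cleavage furrow, was 2.56-fold lower. No gene of this role was more than 2-fold higher under cordyceps, and 5 of 10 were more than 1.5-fold higher.

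For the 4 genes of chromosome structure compared, 3 were more than 2-fold lower under sunitinib, and the median log2 ratio was 0.21 between the cordyceps and control arrays. MKI67 encodes Ki-67, a protein of the chromosome surface used to count cycling cells, and gave signals of 376 ± 37.8, 362 ± 36.8 and 8.31 ± 4.01. It was at least 9.73-fold lower under sunitinib, and its cordyceps ratio of 1.15-fold lay within the error limit. SMC4, a condensin ATPase, gave 2350 ± 235, 2279 ± 228 and 319 ± 32.3, that is 3.5-fold lower under sunitinib and 1.16-fold higher under cordyceps, the latter also within the limit. For both genes another probe exceeded the limit under cordyceps, at 1.41-fold higher for MKI67 and 1.44-fold for SMC4, so this result depends on the probe. TOP2A, the topoisomerase that untangles sister chromatids, gave 106 ± 11.6, 157 ± 17.6 and 4.68 ± 4.70, at least 2.75-fold lower and 1.76-fold higher. NCAPG, another condensin subunit, gave 65.9 ± 7.82, 39.9 ± 8.02 and 10.4 ± 4.35. It was the only mitotic gene below the control under cordyceps, by 0.47 on the log2 scale with an error of 0.34, which is within the error limit, and at least 1.71-fold lower under sunitinib.

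**Figure D4:**
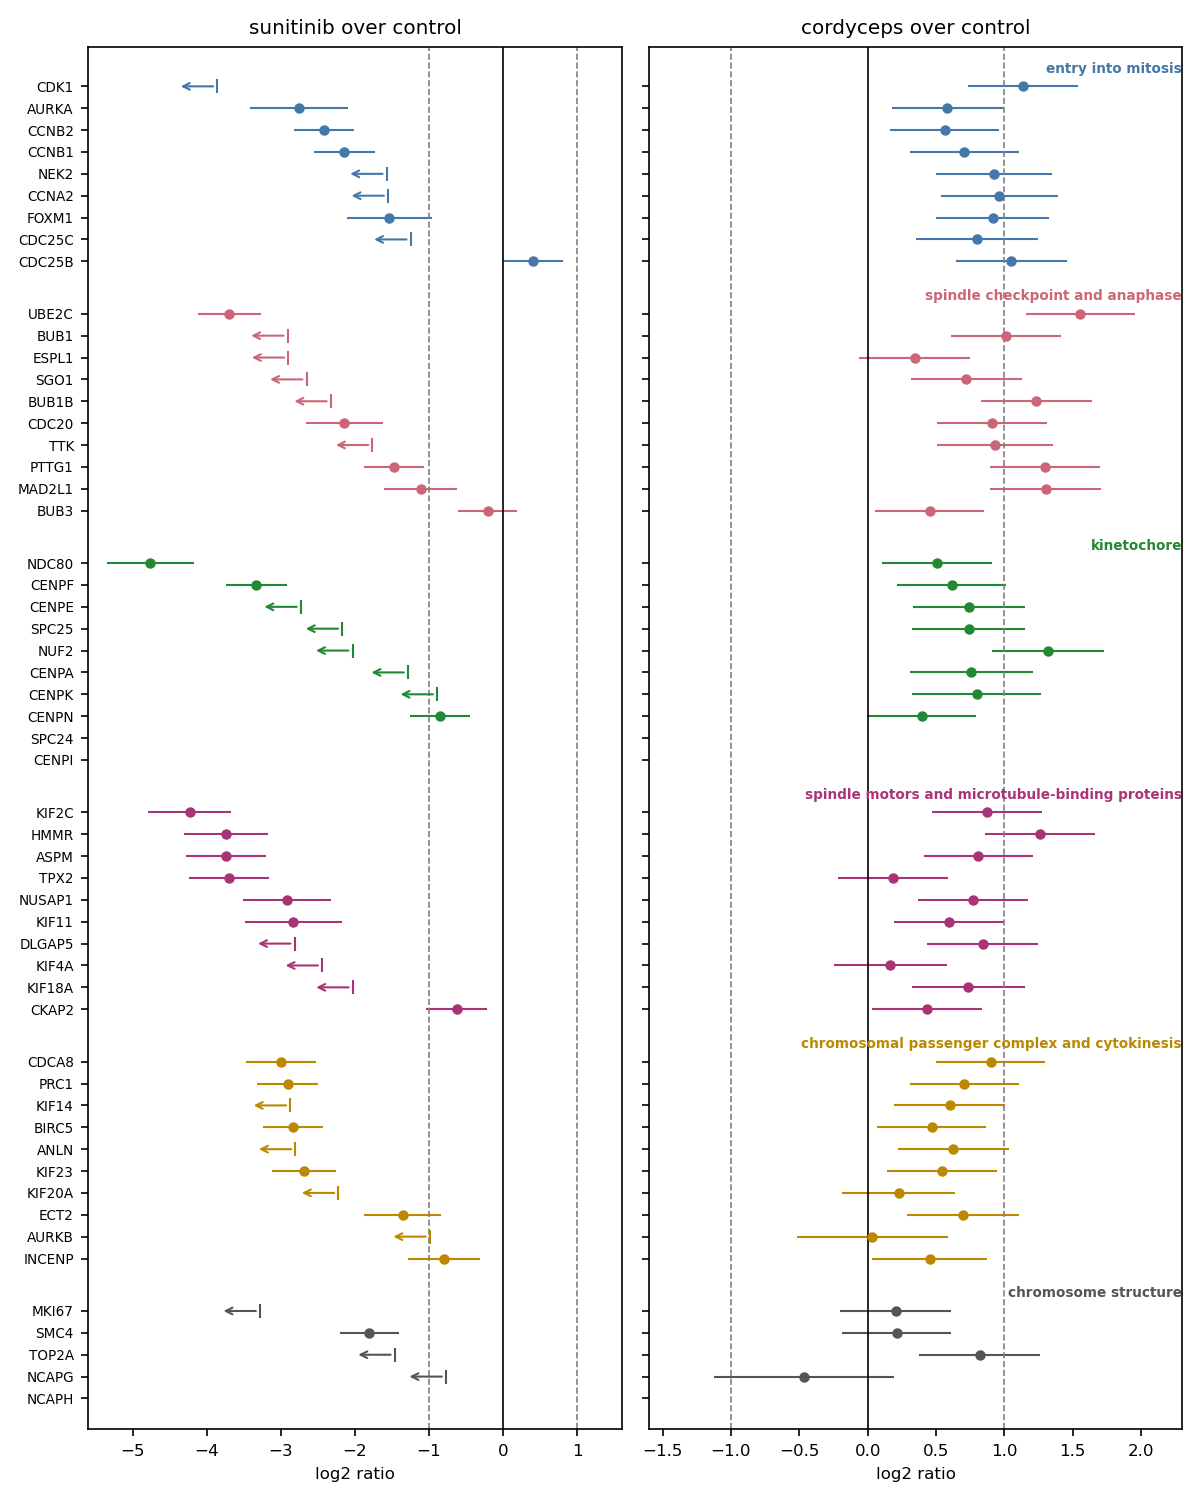
Log2 ratios of the mitotic genes, sunitinib over control at left and cordyceps over control at right, coloured by role. Points are measured ratios with bars of the 95% limit of the combined error, and dashed lines mark 2-fold. Ticks with arrows are genes not well above background on the sunitinib array, which are bounds except for CDK1, BUB1 and ESPL1. NDC80 reaches −4.76 at left, where CDC25B alone lies above 0, and UBE2C reaches 1.56 at right.

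Repeated spots showed how well 1 array measured a gene. BIRC5, CCNA2, CDK1, CENPE and INCENP were printed in 10 spots each. For BIRC5 the spots ran from 2638 to 2971 on the control array, from 3066 to 3340 on the cordyceps array and from 165 to 205 on the sunitinib array, so the 3 arrays did not overlap. For CDK1 they ran from 529 to 612, from 917 to 1112 and from 14.3 to 22.6. The SD over spots on the log2 scale was between 0.05 and 0.11 on the control and cordyceps arrays, smaller than the ratios of BIRC5, CCNA2, CDK1, CENPE and INCENP, and for CCNA2 on the sunitinib array, where all spots were near background, it was 0.60. These spots share 1 RNA extract and say nothing of the spread between cultures.

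Compared directly with the cordyceps array, the sunitinib array was lower for all 51 genes, where 49.4% of 13881 genes were lower, and more than 2-fold lower for 48, where 9.51% of all genes were. The median log2 ratio was −3.05 for the mitotic genes and 0.01 for all genes.

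Other genes of cell division were counted in 8 lists by function, beside the 6.52% of all genes that were more than 2-fold lower under sunitinib. Among other centromere and kinetochore genes, 10 of 26 were more than 2-fold lower. Under cordyceps 10 were more than 1.5-fold higher (38.5%, against 8.79% of all genes). Their lowest gene was ZWINT, a docking protein of the outer kinetochore, with signals of 657, 658 and 26.7 on the control, cordyceps and sunitinib arrays and a log2 ratio of −3.55, and their highest was PMF1 at 0.29. Of 22 other spindle and cytokinesis genes 12 were lower, with CIT, citron kinase of the cleavage furrow, lowest at −3.67 (878, 1005 and 32.9) and NUMA1, a spindle pole protein, highest at 0.67. Of 11 other mitotic entry regulators 4 were lower, from PKMYT1, the kinase that holds CDK1 inactive, at −2.85 (1874, 1864 and 123) to ARPP19 at 0.43.

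The remaining lists covered the anaphase-promoting complex, cohesin, condensin, the CHR-binding complexes and DNA replication, with median log2 ratios between −0.78 and −0.07 under sunitinib. Of 17 subunits and partners of the anaphase-promoting complex, 2 were more than 2-fold lower. Another, ANAPC2, had a ratio of 2.66-fold higher, with a control signal not well above background. The lowest was UBE2S, the enzyme that extends ubiquitin chains after UBE2C has started them, at −1.70 (5080, 8517 and 745), and the highest gene measured on both arrays was CDC26 at 0.45. Of 10 cohesin genes 2 were lower, with CDCA5, sororin, lowest at −2.11 (951, 1406 and 104) and PDS5A highest at 0.30. Of 5 other condensin subunits NCAPD3 was lower at −1.51 (325, 378 and 54.3), while NCAPG2 was higher at 1.99 (137, 210 and 258). The DREAM and MuvB genes, whose products form the complexes on the CHR, had a median of −0.10. Of these 11 genes 1 was lower, at −1.72, with a sunitinib signal not well above background. Among those measured on both arrays, LIN37 was highest at 0.73 and RBL1 lowest at −0.91. Of 24 DNA replication genes 7 were lower, the lowest being CDC45, a part of the replicative helicase, at −3.82 (863, 667 and 29.0). The highest measured on both arrays was MCM2 at 0.70. CDC6 had a ratio of 2.59-fold higher, with a control signal not well above background. In the comparison of cordyceps with control, 5 of 23 replication genes were more than 1.5-fold higher (21.7%, against 8.79% of all genes), with a median of 0.10. So were 7 of 22 other spindle and cytokinesis genes (median 0.42) and 5 of 11 other mitotic entry regulators (0.56). For the anaphase-promoting complex, cohesin, condensin and DREAM lists the counts were 1 of 16, 1 of 10, 1 of 5 and 2 of 11.

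The direction of the sunitinib ratios did not rest on the scaling of the arrays. Over 11 other ways of processing the signals, 49 of the 51 genes stayed below 0 wherever they had a ratio, and 31 stayed more than 2-fold lower. The way that kept only genes well above background on both arrays gave a sunitinib ratio for 27 of them. Under cordyceps 42 of the 51 stayed above 0 in all 11 ways and 5 stayed more than 2-fold higher. Of the 14 genes with several probes, 9 had a further probe with a ratio under sunitinib, and none of these differed in direction. Under cordyceps 1 of 9 did, MKI67, of which another probe had a bound of −0.42 on the log2 scale. Further probes of SGO1, KIF4A and CKAP2 were well above background on the control array only and gave no ratio. Their signals on the control and cordyceps arrays were 33.9 and 19.2 for SGO1, 32.8 and 25.1 for KIF4A, and 31.1 and 36.9 for CKAP2.

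**Figure D5:**
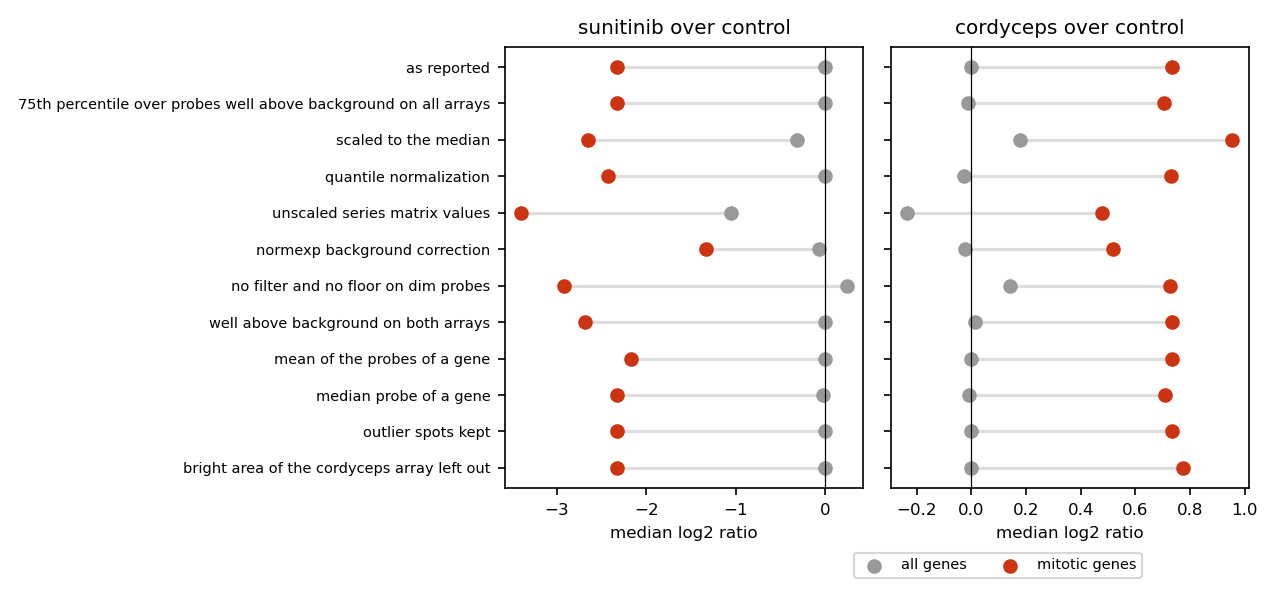
Median log2 ratio of all genes (grey) and of the mitotic genes (red) under each way of processing, sunitinib over control at left and cordyceps over control at right, with different scales on the 2 axes. The mitotic median lies below that of all genes at left and above it at right in every row, from −3.40 to −1.33 and from 0.48 to 0.96.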

How the data were processed

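The authors deposited 1 scanner table per array, made with Feature Extraction 11.5.1.1 (protocol GE1_1105_Oct12, design build hg19), in which the processed signal is a background-subtracted fluorescence intensity on a linear scale with an error for each spot. The series matrix the authors deposited held the same intensity values, unscaled. The study's methods describe a 2-colour array, which does not apply to these files, and only their 2-fold limit was taken from them. Control spots and spots marked as outliers (103, 121 and 63 on the control, cordyceps and sunitinib arrays) were left out, repeated spots were averaged per probe, and each signal was divided by the 75th percentile of its array and put on a log2 scale. Accessions were named through a RefSeq table of GRCh38.p14, used for names only, which named 31087 of 58171 probes (53.4%), and the brightest probe on average over the 3 arrays stood for a gene. Of 580 spots in a bright area of the cordyceps array, none belonged to the 70 mitotic probes. The number of arrays limits the precision, and no replicate check exists.

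The genes given with all their values were, in each role, the 3 with the largest and the 1 with the smallest ratio between the sunitinib and control arrays, those more than 2-fold apart between the cordyceps and control arrays, those well above background on no array, and the highest and lowest gene of each other list measured on both the sunitinib and control arrays. The members, the lists and the tests were chosen with earlier results of these data known. Alternatives changed the scaling, background correction (normexp with an offset of 50), filter on dim probes, choice of probe, outlier spots and limits. Software was limma 3.58.1 in R 4.3.3 for normexp, and Python 3.11.15 with pandas 2.3.3, numpy 2.4.6, scipy 1.17.1 and matplotlib 3.10.9 for the rest. The 2-fold calls between the sunitinib and control arrays were tried on simulated data. Only bright genes were changed there, so the bounds for dim genes were not covered.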

Additional observations from a re-analysis of the deposited data

How the results depend on the processing

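No paired analysis was possible because each condition has 1 array. Dim genes limit the sunitinib comparison, in which 24 of the 51 ratios are bounds or, for CDK1, BUB1 and ESPL1, estimates from a signal not well above background. The median log2 ratios over sunitinib against control, sunitinib against cordyceps and cordyceps against control were −1.33, −1.92 and 0.52 with the normexp correction, −2.66, −3.60 and 0.96 with scaling to the median, and −3.40, −3.87 and 0.48 without scaling. Without a filter or floor on dim probes the first pair became −2.92 and −3.71. Genes well above background on both arrays had a median of −2.68 between sunitinib and control, with 22 of 27 more than 2-fold lower. Between sunitinib and cordyceps all 27 were lower, 25 of them by more than 2-fold. The 9 genes more than 2-fold higher under cordyceps became 34 at the 1.5-fold limit, 5 with normexp, 21 with median scaling and 5 without scaling. Median scaling moved the median of all genes by −0.31 under sunitinib and 0.18 under cordyceps, and leaving out the scaling by −1.06 and −0.24, so the distance of the mitotic genes from all genes moved less. The share of changed genes that were higher under sunitinib was 49.7% as reported, 21.3% with median scaling, 1.99% without scaling, 27.8% with normexp and 80.5% without a filter, and under cordyceps 52.2%, 77.0%, 25.3%, 50.8% and 63.7%. No median of the mitotic genes changed sign under these alternatives, whereas the balance of all changed genes did, and the cause of each shift was not tested. Leaving out the bright area of the cordyceps array, chosen after seeing the data, changed the cordyceps median to 0.77 and the 2-fold count to 10.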

Other observations

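Genes outside the mitotic list were sorted by the same promoter letters, and the values are given without an explanation or a test. Of 182 such genes with 2 or more CCAAT and a CHR, 33 (18.1%) were more than 2-fold lower between the sunitinib and control arrays, against 6.02% of all 11525 other genes with a promoter window. With 1 CCAAT and a CHR 7.80% of 359 genes were lower, and with neither element 5.11% of 6595. Between the cordyceps and control arrays, 23.1% of the 182 genes with 2 or more CCAAT and a CHR were more than 1.5-fold higher, against 8.26% of all. Other cell division genes are among these 182, and their part in the share was not tested.

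A pair of CCAAT matches 30 to 34 bases apart, a spacing chosen after the matches had been seen, was present in 5 of the 48 mitotic windows (CCNB1, CCNB2, HMMR, NEK2 and SPC25), or 10.4%, and in 1.69% of all windows.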
